A study of Mus musculus with 16 samples.

Results

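The core and naive pluripotency genes are the transcription factors, chromatin proteins, secreted factors and marker genes by which mouse embryonic stem (ES) cells are known. The 30 genes were chosen by name and not by a cut-off on any value, but with earlier results of these data known. All 30 were found, through 42 probes, among 20972 genes named on the array. Of the 30, 27 had enough usable values to enter the test, which covered 11180 genes. Nanog, Zfp42 and Lin28a entered only when spots marked as outliers in the files were kept, and their values are given that way. The RNA came from E14 mouse ES cells grown in serum with LIF, the cytokine that holds them undifferentiated. The cells were transfected by lipofection with EGFP alone, or with a TALE, a designed DNA-binding protein named for the gene Ptn, in 3 forms. The Ptn_VP64 form carried VP64, a synthetic transcriptional activator, and the Ptn_DEL form DEL, an acidic peptide known for opening chromatin, while what Ptn_Delta carries is not given in the labels. Cells of every group were sorted for eGFP at 24 h, seeded again, and harvested for polyadenylated RNA at 48 h. Each group had 4 single-colour arrays, from 2 biological and 2 technical replicates whose order is not given, so each group rests on 2 biological samples.

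Pou5f1 (OCT4), SOX2 and NANOG bind many of the same regulatory elements, their own among them, and keep ES cells able to form every tissue of the embryo. Around them, naive factors such as ESRRB, TFCP2L1, KLF4 and TBX3 link that core to LIF and its transcription factor STAT3, and are known to be lost early when ES cells leave the naive state. FGF4, made by the ES cells themselves, signals through ERK and is known to prepare that exit.

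Promoters of 20 of the 30 genes were found in RefSeq (build GRCm38.p6), each with 250 bases before and 50 after the start of the gene. The 3 printed here are those of Nanog, which holds a composite site of the kind OCT4 and SOX2 share, and of Nr0b1 and Eras, the genes with the smallest unadjusted p when Ptn_VP64 was set against EGFP. Capitals mark the composite site in Nanog (searched with any base allowed at 1 position), the KLF letters CCNCACCC and the TATA box TATAAA in Nr0b1, and the KLF letters and the GC box GGGCGG in Eras, searched on both strands. The Nanog promoter lies at chr6:122707239-122707538 on the + strand, that of Nr0b1 at chrX:86191525-86191824 on the + strand, and that of Eras at chrX:7928558-7928857 on the - strand.
Nanog: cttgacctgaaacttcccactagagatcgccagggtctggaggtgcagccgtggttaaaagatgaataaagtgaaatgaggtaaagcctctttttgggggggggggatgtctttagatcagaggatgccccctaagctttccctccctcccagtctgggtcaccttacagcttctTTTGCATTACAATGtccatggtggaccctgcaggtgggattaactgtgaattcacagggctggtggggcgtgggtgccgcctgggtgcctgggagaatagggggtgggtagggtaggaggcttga
Nr0b1: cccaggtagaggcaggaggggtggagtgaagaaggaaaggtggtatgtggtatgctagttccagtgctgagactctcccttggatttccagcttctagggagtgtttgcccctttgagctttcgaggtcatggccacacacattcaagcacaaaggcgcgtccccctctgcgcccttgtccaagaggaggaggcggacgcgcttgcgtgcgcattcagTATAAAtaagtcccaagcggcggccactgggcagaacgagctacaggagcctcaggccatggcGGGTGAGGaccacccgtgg
Eras: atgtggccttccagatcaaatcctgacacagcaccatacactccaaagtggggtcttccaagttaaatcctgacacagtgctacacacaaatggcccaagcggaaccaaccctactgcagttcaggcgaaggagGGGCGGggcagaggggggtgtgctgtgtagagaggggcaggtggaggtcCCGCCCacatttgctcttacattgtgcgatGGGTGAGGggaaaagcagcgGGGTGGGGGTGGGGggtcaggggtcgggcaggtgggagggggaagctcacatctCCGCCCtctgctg
The composite site was found in 2 of 32851 promoters of this length (0.00609%), both of them start sites of Nanog. In the counts that follow, a gene counts if any of its start sites matches, while shares over all count each promoter. This favours genes with several start sites. The KLF letters were in 7 of the 20 genes (Eras, Esrrb, Nr0b1, Nr5a2, Tcl1, Trim28 and Zfp42) and in 16.6% of all promoters. The GC box was in 14 of the 20 and in 35.7% of all, and the TATA box in 4 of the 20 (Nr0b1, Nr5a2, Spp1 and Tfcp2l1) and in 13.6% of all. A CCAAT box (CCAAT) was in 7 of the 20 and in 37.4% of all, and the octamer ATGCAAAT was in 2 (Spp1 and Zfp42) and in 1.74% of all. The ESRRB letters TCAAGGTCA were in none of the 20 and in 0.423% of all.

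Levels are log2 of the processed spot signal relative to the array's 75th percentile, which is 0, after a correction for dim and bright patches of each array. Levels of different genes come from different probes and are not set against each other. The 75th percentile of the signal was lowest on EGFP replicate 2, at 209, and highest on Ptn_VP64 replicate 1, at 1253, and strong patches took 0.641 to 35.6% of spots. Before the correction each array correlated with the remaining arrays at a median of 0.661 to 0.859. After it, with spots in strong patches also left out, the median was 0.856 to 0.958. Values were left out where a spot lay in a strong patch or was marked, so that 7 (Ptn_VP64 replicate 2) to 26 of the 30 genes had a value on an array. Replicates 1 and 2 shared a slide, as did replicates 3 and 4, and each construct always took the same column of the slide, so construct and slide column cannot be told apart. Ptn, named in the TALE constructs, was at 2.60 to 3.31 on 3 Ptn_VP64 arrays, against -2.17 and -0.31 on 2 EGFP arrays, -2.53 to 0.01 on 3 Ptn_DEL arrays and -1.88 to 0.56 on 3 Ptn_Delta arrays. Its adjusted p against EGFP was 0.456, and Il33 and Nnmt alone passed in that comparison.

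The cells carried the transcripts of their label. Of the 30 genes, 28 were well above background on all 16 arrays, and the others, Dppa3 and Prdm14, on 9 and 15. The summed level of all 30 lay between 9.31 and 10.57 on every array. It took every spot after the patch correction, with strong patches and marked spots included, and weighs most on the brightest probes. Some probes were at the top of the scanner's range. That of Dppa5a was saturated on 13 arrays, that of Utf1 on 5 and that of Pou5f1 on 4. Those of Zfp42 and Trim28 were saturated on 3 arrays each, that of Spp1 on 2 and those of Tdgf1 and Mybl2 on 1 each. The standard deviation between arrays of a group, pooled over groups, had a median of 0.31 over the 27 genes (0.12 to 1.20), against 0.43 over all genes tested and 0.29 over the 2168 genes with a mean level of at least 3.

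**Figure D1:**
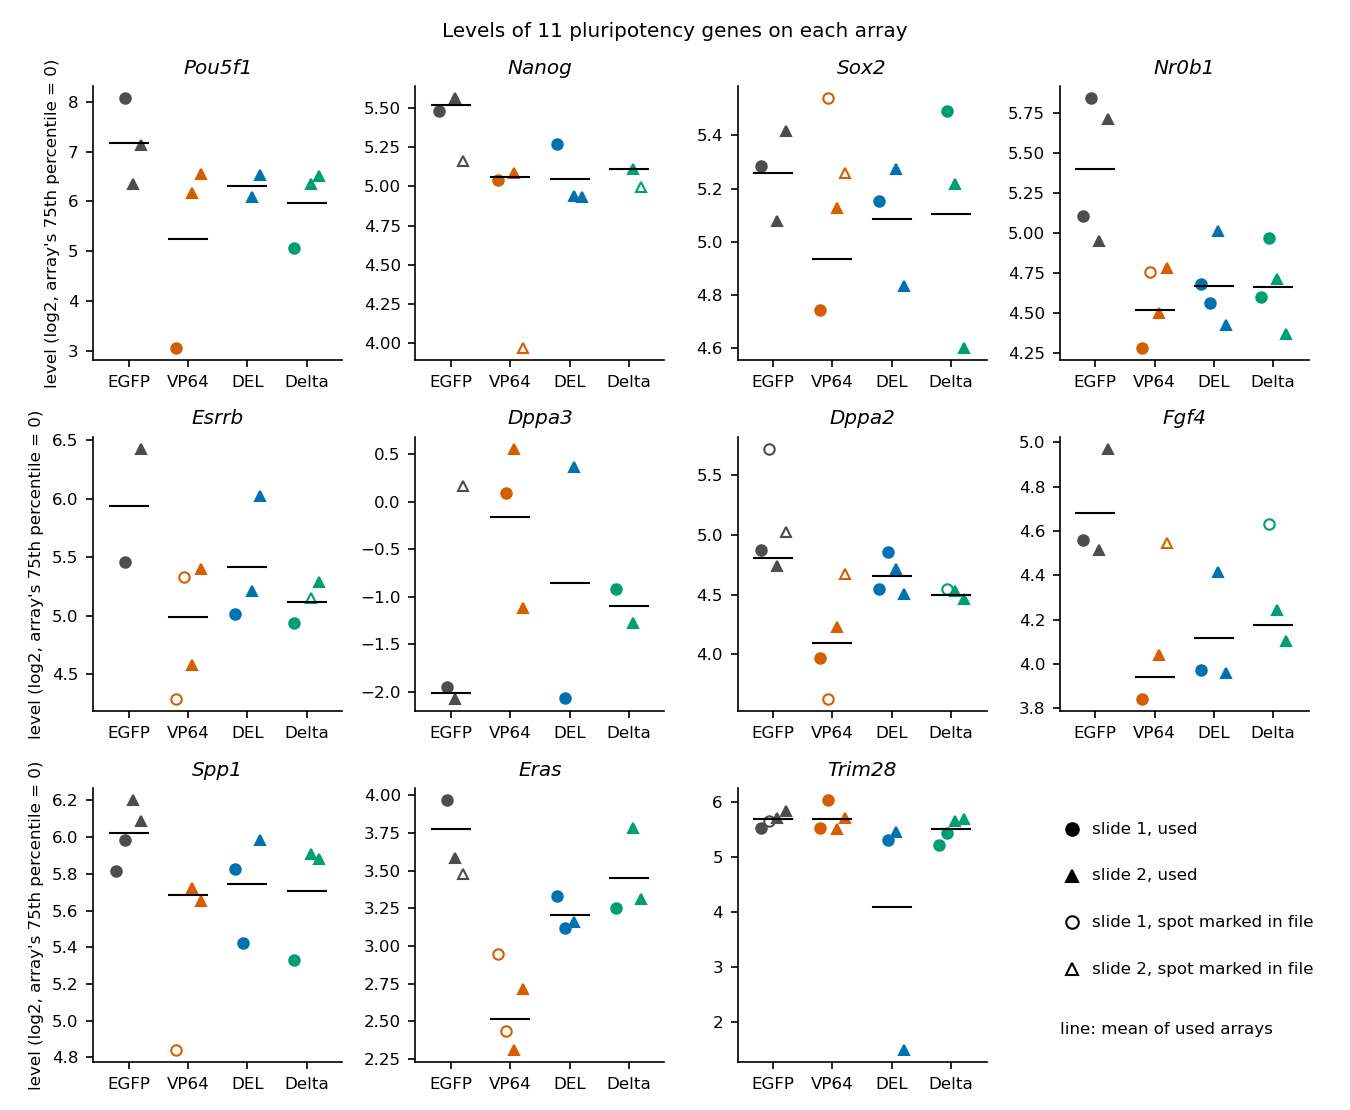
Log2 level (y axis, each array's 75th percentile is 0) of the 11 genes chosen by rule for description array by array, in the 4 groups. Each array gives 1 point, a circle for slide 1 or a triangle for slide 2. Open symbols show marked spots, and a line the mean of the used arrays. For Nr0b1 3 of the EGFP arrays lie above every other used array, for Pou5f1 a single Ptn_VP64 array lies at 3.05, and for Trim28 a single Ptn_DEL array lies at 1.48. Each panel has its own y range.

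With Ptn_VP64, 21 of the 27 genes were lower than with EGFP and the median difference was -0.33 on the log2 scale, but none passed the test. Over all genes tested 48.1% were lower and the median was 0.01, and among those with a mean level of at least 3, 58.5% were lower with a median of -0.03. The test was limma on arrays averaged to 2 samples a group in each of the 3 possible pairings, with the largest p kept and adjusted over all genes. It called 0 of the 27 genes and 2 of all genes (0.0179%). At an unadjusted p under 0.05, 2 of the 27 were lower, Nr0b1 and Eras, against 2.55% of all genes. With the 16 arrays unaveraged, which counts technical repeats as replicates, it again called 0 of the 27, against 3.30% of all genes, and 8 had an unadjusted p under 0.05, all lower, against 6.31% of all genes. With marked spots kept, 0 of 30 were called with arrays averaged and 1 of 30, Eras, with arrays unaveraged, against 0.0163% and 3.21% of all genes. Differences spanned -1.40 for Pou5f1 to 1.61 for Dppa3, and 15 of the 27 were within 0.5 of 0. Arrays of the groups did not overlap for 13 genes that were lower and 2 that were higher, against 9.45% and 13.4% of all genes. With marked spots kept these counts were 8 and 1 of 30, against 6.36% and 9.07% of all genes.

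With Ptn_DEL, 21 of the 27 genes were lower than with EGFP, with a median difference of -0.19, and with Ptn_Delta 22 of 27 were lower, with a median of -0.26. Over all genes the medians were 0.02 and 0.02. In these comparisons limma on averaged arrays called 0 of the 27 genes and 0 of all genes (0%), and 0 of the 27 had an unadjusted p under 0.05, against 2.48% and 2.78% of all genes in either direction. Unaveraged, it called 0 of the 27 in each, against 0.0716% and 0.0268% of all genes, and with marked spots kept 0 of 30, against 0% of all genes in each. Arrays did not overlap for 7 lower genes and 1 higher gene with Ptn_DEL, against 4.44% and 7.36% of all genes. For Ptn_Delta they did not overlap for 8 lower genes and 1 higher gene, against 5.22% and 8.46% of all genes. Without the saturated Dppa5a and the dim probes of Dppa3, Tfcp2l1, Nr5a2, Dppa4 and Gdf3, a choice made after seeing the data, 18 of 21 genes were lower with Ptn_VP64 (median -0.44), 18 with Ptn_DEL (median -0.26) and 19 with Ptn_Delta (median -0.31). The 3 comparisons share the EGFP arrays, so that a high or low EGFP array enters all of them. As the RNA was extracted from all the sorted cells of a dish, fewer cells with a transcript and less of it per cell cannot be told apart.

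**Figure D2:**
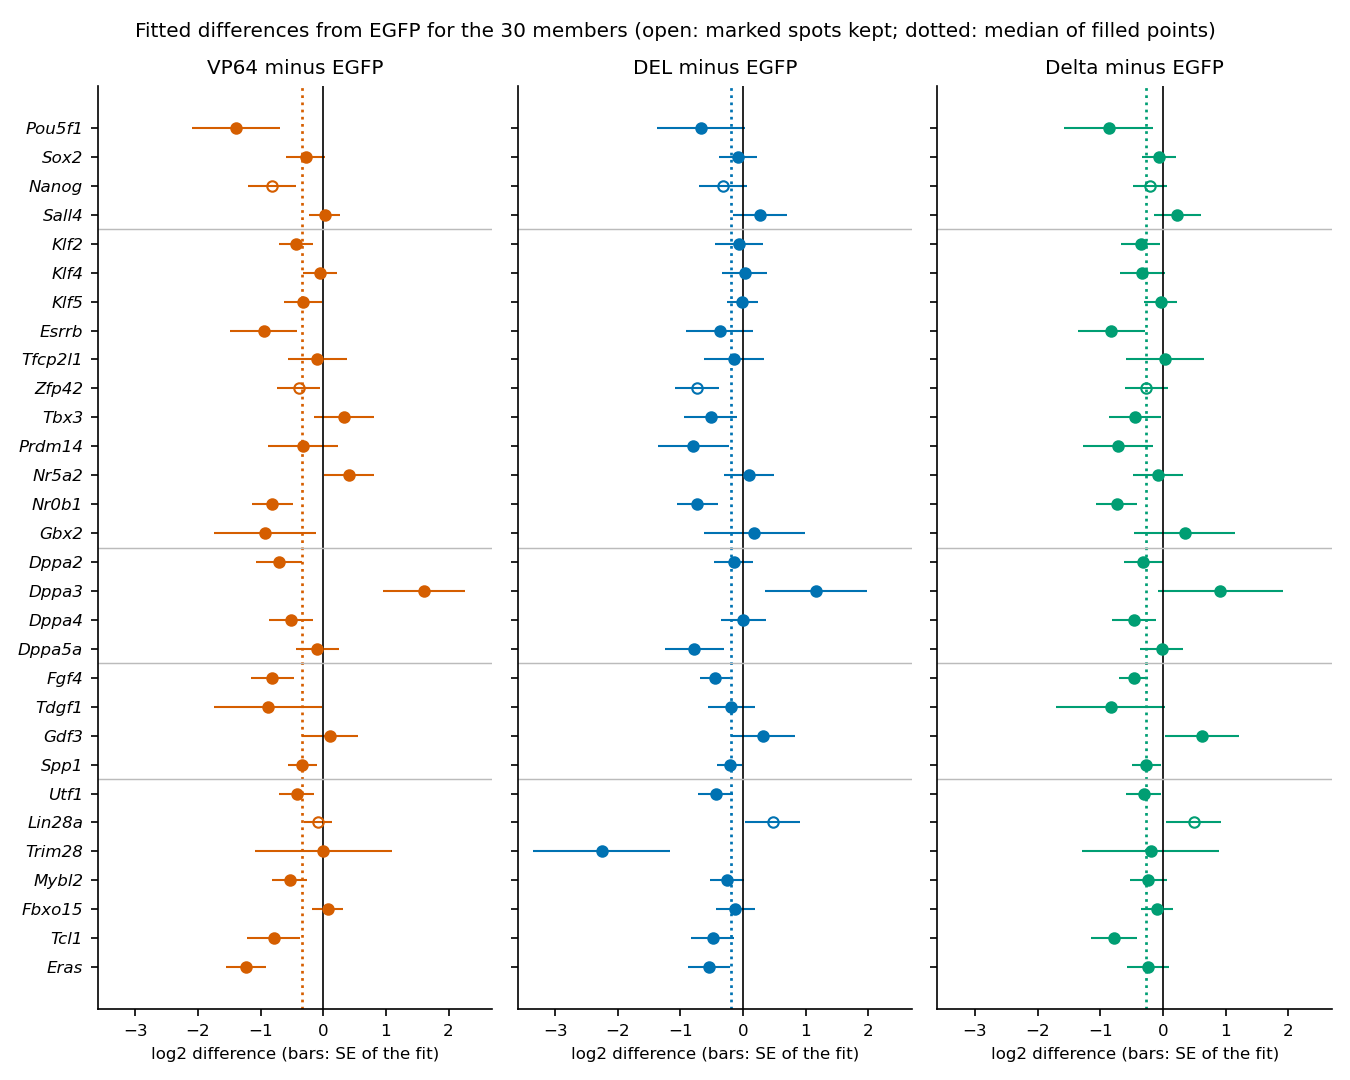
Fitted log2 difference from EGFP (x axis) of each of the 30 genes (y axis, in role groups parted by lines) with Ptn_VP64, Ptn_DEL and Ptn_Delta, bars showing the standard error of the fit, filled points the 27 genes tested, open points Nanog, Zfp42 and Lin28a with marked spots kept, and dotted lines the medians of the filled points. The medians lie at -0.33, -0.19 and -0.26, and most bars are wider than these shifts.

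The core factors are Pou5f1, Sox2 and Nanog, described above, and Sall4, a zinc-finger factor that works with them. The level of Pou5f1 was 8.07, 6.35 and 7.13 on EGFP arrays 2 to 4, 3.05, 6.16 and 6.54 on Ptn_VP64 arrays 1, 3 and 4, 6.08 and 6.53 on Ptn_DEL arrays 3 and 4, and 5.07, 6.35 and 6.50 on Ptn_Delta arrays 1, 3 and 4. The groups overlapped only through EGFP array 3, as EGFP arrays 2 and 4 lay above every used TALE array. The 6.35 of EGFP array 3 and the 6.08 of Ptn_DEL array 3 came from saturated spots and are lower bounds. The low value of Ptn_VP64 replicate 1 stood apart from the rest. The difference from EGFP was -1.40 ± 0.70 (standard error, as in all differences below) with Ptn_VP64, with an unadjusted p of 0.088 and an adjusted p of 0.725. It was -1.06 without Ptn_VP64 replicate 1. Within slide 1 it was -5.02 and within slide 2 -0.39, and over 30 alternative settings it ran from -2.80 to -0.24. With Ptn_DEL it was -0.67 ± 0.70 and with Ptn_Delta -0.87 ± 0.70.

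Sox2 varied less between arrays, with a pooled standard deviation of 0.31. Its level was 5.28, 5.08 and 5.42 on EGFP arrays 1, 3 and 4, 4.74 and 5.13 on Ptn_VP64 arrays 1 and 3, 5.15, 5.28 and 4.83 on Ptn_DEL arrays 1, 3 and 4, and 5.49, 5.22 and 4.60 on Ptn_Delta arrays 2 to 4. All groups overlapped. Sox2 differed from EGFP by -0.28 ± 0.31 with Ptn_VP64 (95% interval -1.02 to 0.46), by -0.08 ± 0.31 with Ptn_DEL and by -0.07 ± 0.27 with Ptn_Delta. A difference of 1 log2 unit below EGFP lies inside the Ptn_VP64 interval.

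Nanog was read with marked spots kept, as its bright probe had too few unmarked spots. Its level was 5.48, 5.56 and 5.16 on EGFP arrays 1, 3 and 4, 5.04, 5.09 and 3.97 on Ptn_VP64 arrays 1, 3 and 4, 5.27, 4.94 and 4.93 on Ptn_DEL arrays 1, 3 and 4, and 5.11 and 5.00 on Ptn_Delta arrays 3 and 4. The Ptn_VP64 and Ptn_Delta arrays all lay below the EGFP arrays, and the lowest value, 3.97, came from a marked spot. Nanog differed from EGFP by -0.83 ± 0.38 with Ptn_VP64 (adjusted p 0.672), by -0.32 ± 0.38 with Ptn_DEL and by -0.20 ± 0.28 with Ptn_Delta. Sall4 lay between 2.91 and 3.87 over 11 arrays and differed from EGFP by 0.02, 0.27 and 0.23 with Ptn_VP64, Ptn_DEL and Ptn_Delta. Its probes disagreed in sign for Ptn_VP64 and Ptn_Delta. None of the core factors passed the test in any of the 3 comparisons.

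Of the naive factors, 8 of the 10 tested were lower with Ptn_VP64 (median -0.33), 7 with Ptn_DEL (median -0.10) and 8 with Ptn_Delta (median -0.34), and none passed. Nr0b1 (DAX1), a nuclear receptor partner of OCT4 and ESRRB, had a probe printed at 10 spots of each array, of which 0 to 10 were used. Its pooled standard deviation between arrays, 0.31, was the median of the 27 genes. Its level was 5.10, 5.84, 4.95 and 5.71 on EGFP arrays 1 to 4, 4.28, 4.50 and 4.78 on Ptn_VP64 arrays 1, 3 and 4, 4.68, 4.56, 5.01 and 4.42 on Ptn_DEL arrays 1 to 4, and 4.60, 4.97, 4.71 and 4.37 on Ptn_Delta arrays 1 to 4. The EGFP arrays were the highest, and of the other used arrays Ptn_DEL replicate 3 and Ptn_Delta replicate 2 alone reached the lowest EGFP value, 4.95. Nr0b1 was 1.76-fold lower than EGFP with Ptn_VP64 (log2 difference -0.82 ± 0.33, 95% interval -1.60 to -0.04, unadjusted p 0.042, adjusted p 0.585). With Ptn_DEL the difference was -0.73 ± 0.33 (unadjusted p 0.061) and with Ptn_Delta -0.74 ± 0.33 (unadjusted p 0.059). All 10 spots of Ptn_VP64 replicate 2 were left out.

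Slides gave the same sign for Nr0b1. The Ptn_VP64 difference was -1.19 on slide 1 and -0.69 on slide 2, that of Ptn_DEL -0.85 and -0.61, and that of Ptn_Delta -0.69 and -0.79. Over 32 alternative settings the Ptn_VP64 difference ran from -1.49 to -0.71, with adjusted p from 0.068 upward. The differences between the TALE groups were -0.08 for Ptn_VP64 against Ptn_Delta, 0.01 for Ptn_DEL against Ptn_Delta and -0.08 for Ptn_VP64 against Ptn_DEL, with a 95% interval of -0.86 to 0.69 for the last. The used spots of the same array varied with a standard deviation of 0.06 to 0.49 after the correction for patches. Before it, all 10 spots varied with 0.12 to 1.68. Part of this fall comes from leaving out spots in strong patches and marked spots.

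**Figure D3:**
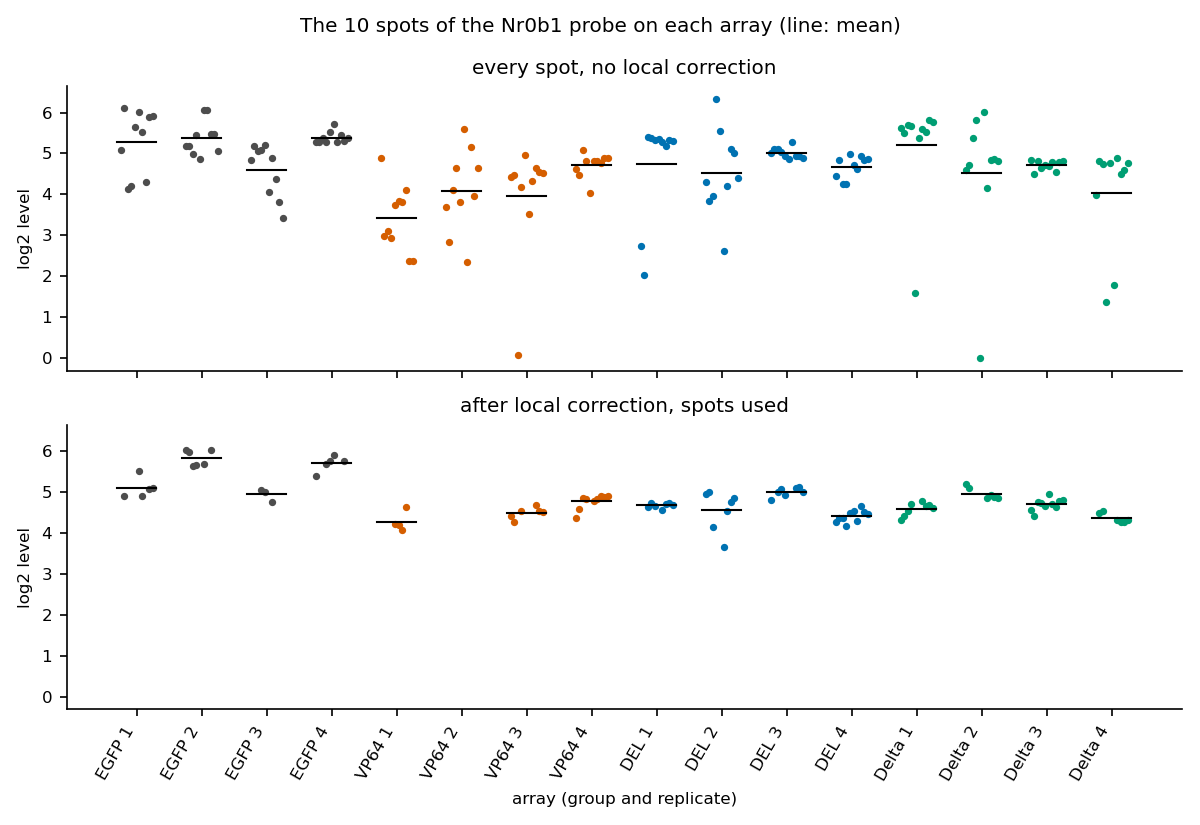
Log2 level (y axis) of the 10 spots of the Nr0b1 probe on each of the 16 arrays (x axis), before the correction for patches in the upper panel and for the spots used after it in the lower, with a line at the mean. Before correction single spots fall to about 0, and after it the spots of an array lie close together, with no spot used on Ptn_VP64 replicate 2.

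Esrrb, a nuclear receptor that can stand in for NANOG, was at 5.46 and 6.42 on EGFP arrays 2 and 4, 4.58 and 5.40 on Ptn_VP64 arrays 3 and 4, 5.01, 5.21 and 6.02 on Ptn_DEL arrays 1, 3 and 4, and 4.94 and 5.29 on Ptn_Delta arrays 1 and 4. The Ptn_VP64 and Ptn_Delta arrays lay below both EGFP arrays. Its difference from EGFP was -0.95 ± 0.54 with Ptn_VP64 (adjusted p 0.791), -0.37 ± 0.54 with Ptn_DEL and -0.82 ± 0.54 with Ptn_Delta, and the Ptn_VP64 value ran from -1.27 to 0.04 over 26 alternative settings.

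The Krüppel-like factors, which bind the same sites and can replace each other, differed from EGFP by less than 0.5. Klf2 differed from EGFP by -0.44 ± 0.27, -0.06 ± 0.38 and -0.35 ± 0.31 with Ptn_VP64, Ptn_DEL and Ptn_Delta. Klf4 differed by -0.05, 0.02 and -0.33, and Klf5 by -0.33, -0.01 and -0.03. Tbx3, a T-box factor downstream of LIF and PI3 kinase, was the naive factor with the Ptn_VP64 arrays highest. Its level was 3.57 and 3.59 on EGFP arrays 1 and 3, 3.88 and 3.95 on Ptn_VP64 arrays 1 and 3, 3.44, 3.20 and 2.81 on Ptn_DEL arrays 1, 3 and 4, and 2.89, 3.39 and 2.90 on Ptn_Delta arrays 2 to 4. The Ptn_VP64 arrays lay above, and the Ptn_DEL and Ptn_Delta arrays below, both EGFP arrays, yet the differences from EGFP of 0.33 ± 0.48, -0.52 ± 0.42 and -0.44 ± 0.42 did not pass the test. A marked spot put EGFP replicate 2 at 2.93, inside the Ptn_DEL and Ptn_Delta ranges. Another put Ptn_Delta replicate 1 at 3.72, above both EGFP arrays. One on Ptn_VP64 replicate 4, at 3.86, was also above them. Without the correction for patches the Ptn_VP64 difference from EGFP was -0.29. Ptn_VP64 against Ptn_DEL gave 0.85 ± 0.42 (unadjusted p 0.102).

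Gbx2, a homeobox gene that LIF and STAT3 switch on, was at 2.81 and 3.07 on EGFP arrays 1 and 3, at 1.55, 1.61 and 2.45 on Ptn_VP64 arrays 1, 3 and 4, at 2.41, 3.71, 2.45 and 3.91 on Ptn_DEL arrays 1 to 4, and at 2.62 and 3.96 on Ptn_Delta arrays 3 and 4. The Ptn_VP64 arrays were at or near the bottom, and the difference from EGFP was -0.93 ± 0.81 with Ptn_VP64, 0.18 ± 0.81 with Ptn_DEL and 0.35 ± 0.81 with Ptn_Delta. Prdm14, which holds down FGF signalling and DNA methyltransferases, differed by -0.33 ± 0.56, -0.79 ± 0.56 and -0.72 ± 0.56. Tfcp2l1, a direct STAT3 target, and Nr5a2, a nuclear receptor that drives Pou5f1, were read through dim probes because their brighter probes had too few values. The Tfcp2l1 probe was well above background on 5 of 16 arrays, 1 of them EGFP, so no difference is given for it, though its sign enters the counts of naive factors. The Nr5a2 probe was well above background on 13 of 16 arrays and differed by 0.40, 0.09 and -0.08. Probes of Nr5a2 disagreed in sign for Ptn_VP64 and Ptn_DEL, and those of Tfcp2l1 for Ptn_VP64 and Ptn_Delta. Zfp42 (REX1), the classic marker of the naive state, read with marked spots kept, differed by -0.39 ± 0.34, -0.73 ± 0.35 and -0.27 ± 0.34. Its lowest values, 5.37 on Ptn_VP64 replicate 1 and 5.51 on Ptn_DEL replicate 1, came from saturated spots and are lower bounds.

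The Dppa genes (developmental pluripotency associated) are the next role group. Dppa3 (Stella), which guards maternal DNA methylation and varies between ES cells of a dish, was dim. It was at -1.95 and -2.07 on EGFP arrays 2 and 3, at 0.09, 0.55 and -1.12 on Ptn_VP64 arrays 2 to 4, at -2.06 and 0.37 on Ptn_DEL arrays 2 and 3, and at -0.92 and -1.27 on Ptn_Delta arrays 1 and 3. The Ptn_VP64 and Ptn_Delta arrays lay above these EGFP arrays, while a marked spot put EGFP replicate 4 at 0.17, inside the Ptn_VP64 range. It was well above background on 1 of 4 EGFP arrays, all 4 Ptn_VP64 arrays and 2 arrays of each other group. The difference from EGFP was 1.61 ± 0.65 with Ptn_VP64 (unadjusted p 0.062, adjusted p 0.646), 1.16 ± 0.81 with Ptn_DEL and 0.92 ± 0.99 with Ptn_Delta, and with marked spots kept these became 0.52 ± 0.82, 0.07 and -0.17.

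Dppa2, which with DPPA4 opens developmental promoters, was at 4.87 and 4.74 on EGFP arrays 1 and 3, at 3.97 and 4.22 on Ptn_VP64 arrays 1 and 3, at 4.54, 4.85, 4.72 and 4.50 on Ptn_DEL arrays 1 to 4, and at 4.53 and 4.46 on Ptn_Delta arrays 3 and 4. The used Ptn_VP64 arrays were the lowest. Marked spots put Ptn_VP64 replicate 2 at 3.63, below the other groups, and Ptn_VP64 replicate 4 at 4.67. The latter lay inside the Ptn_DEL range and above the Ptn_Delta arrays, though below the EGFP arrays. The difference of Dppa2 from EGFP was -0.71 ± 0.36 with Ptn_VP64 (adjusted p 0.763), -0.15 ± 0.31 with Ptn_DEL and -0.31 ± 0.31 with Ptn_Delta. The Ptn_VP64 value ran from -1.29 to -0.55 over 26 alternative settings. Dppa4, read through a dim probe that was well above background on 14 of 16 arrays, differed by -0.52, -0.00 and -0.47. Its brightest probe, with marked spots kept, differed by 0.02, 0.01 and -0.02. Another bright probe gave differences of array means of -0.51, -1.65 and -0.22 with marked spots kept, with 1 Ptn_DEL array at 0.58. The probes of Dppa4 disagreed in sign in all 3 comparisons with EGFP. Dppa5a, an RNA-binding protein, was saturated on all 4 EGFP and all 4 Ptn_DEL arrays, on 3 Ptn_VP64 arrays and on 2 Ptn_Delta arrays, so no difference is given for it.

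Secreted and cell surface genes gave 3 of 4 lower in each comparison with EGFP, with medians of -0.57, -0.20 and -0.36. The FGF ligand gene Fgf4 was at 4.56, 4.51 and 4.97 on EGFP arrays 1, 3 and 4, at 3.84 and 4.04 on Ptn_VP64 arrays 1 and 3, at 3.97, 4.42 and 3.96 on Ptn_DEL arrays 1, 3 and 4, and at 4.25 and 4.10 on Ptn_Delta arrays 3 and 4. Each TALE array lay below the EGFP arrays. A marked spot on a Ptn_VP64 array (4.54) and on a Ptn_Delta array (4.63) reached the EGFP range. Fgf4 differed from EGFP by -0.81 ± 0.34 with Ptn_VP64 (unadjusted p 0.0545, adjusted p 0.63), by -0.45 ± 0.23 with Ptn_DEL and by -0.46 ± 0.23 with Ptn_Delta, and all 28 alternative settings gave the same sign in each.

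Spp1 (osteopontin), a secreted matrix protein whose gene carries an OCT4 site, was at 5.81, 5.98, 6.20 and 6.09 on EGFP arrays 1 to 4, at 5.72 and 5.65 on Ptn_VP64 arrays 3 and 4, at 5.83, 5.42 and 5.98 on Ptn_DEL arrays 1, 2 and 4, and at 5.33, 5.91 and 5.88 on Ptn_Delta arrays 1, 3 and 4. The Ptn_VP64 arrays lay below all EGFP arrays and the other groups overlapped with them. Its difference from EGFP was -0.33 ± 0.24, -0.22 ± 0.20 and -0.26 ± 0.24. Tdgf1 (CRIPTO), the NODAL coreceptor, differed by -0.88 ± 0.86, -0.19 ± 0.38 and -0.84 ± 0.86, and its probes disagreed in sign for Ptn_DEL. Its Ptn_Delta levels were 4.86 and 6.86 on arrays 1 and 2, against 6.67 and 6.73 on EGFP arrays 2 and 4. The 4.86 came from a saturated spot and is a lower bound. Gdf3, a TGF-beta family ligand, differed by 0.11, 0.32 and 0.62 through a dim probe, well above background on 12 of 16 arrays, and by -0.30, -0.11 and -0.20 through its bright probe with marked spots kept.

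The last group holds genes of chromatin, RNA, the cell cycle and signalling, of which 5 of 6 tested were lower with Ptn_VP64 (median -0.48) and 6 of 6 with Ptn_DEL (median -0.46) and Ptn_Delta (median -0.24). Eras, a constitutively active RAS of ES cells that feeds PI3 kinase, had the smallest p of the 27 genes. It was at 3.96 and 3.58 on EGFP arrays 2 and 3, at 2.31 and 2.71 on Ptn_VP64 arrays 3 and 4, at 3.33, 3.12 and 3.16 on Ptn_DEL arrays 1 to 3, and at 3.25, 3.78 and 3.31 on Ptn_Delta arrays 1, 3 and 4. The Ptn_VP64 arrays were the lowest and did not overlap with any other group, and marked spots on Ptn_VP64 arrays 1 and 2, at 2.95 and 2.44, were also below the other groups. Eras was 2.35-fold lower than EGFP with Ptn_VP64 (log2 difference -1.24 ± 0.32, 95% interval -2.10 to -0.37, unadjusted p 0.0162, adjusted p 0.456). With Ptn_DEL the difference was -0.54 ± 0.34 and with Ptn_Delta -0.24 ± 0.34.

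Eras passed the test in 2 of 27 alternative settings, with an adjusted p of 0.0492 with arrays unaveraged and no slide term (against 3.64% of all genes called) and of 0.0308 with arrays unaveraged, the slide as a term and marked spots kept, a setting added after seeing the data. Without the correction for patches its difference was 0.01 and with the authors' deposited log2 values -0.14. Ptn_VP64 against Ptn_Delta gave -0.86 ± 0.32 (unadjusted p 0.050) and against Ptn_DEL -0.65 ± 0.32 (unadjusted p 0.105).

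Trim28 (KAP1), the corepressor that silences retroviral elements with SETDB1, was at 5.53, 5.70 and 5.83 on EGFP arrays 1, 3 and 4, at 5.52, 6.02, 5.51 and 5.71 on Ptn_VP64 arrays 1 to 4, at 5.31, 5.45 and 1.48 on Ptn_DEL arrays 2 to 4, and at 5.21, 5.44, 5.65 and 5.69 on Ptn_Delta arrays 1 to 4. All but Ptn_DEL replicate 4 lay between 5.21 and 6.02, and the values 5.31, 5.21 and 5.44 came from saturated spots. The Ptn_DEL difference of -2.26 ± 1.09 became -0.27 without that array. Before the correction for patches its level was 1.54 on Ptn_DEL replicate 1, which was left out, and 1.51 on Ptn_DEL replicate 4, so 2 of the 4 Ptn_DEL arrays carried a dim spot.

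Tcl1, a cofactor of AKT, differed from EGFP by -0.79 ± 0.43 with Ptn_VP64, -0.49 ± 0.35 with Ptn_DEL and -0.78 ± 0.37 with Ptn_Delta. Utf1, a chromatin protein of bivalent promoters, differed by -0.42 ± 0.28, -0.44 ± 0.28 and -0.31 ± 0.28. Its probe was saturated on 5 arrays, 1 Ptn_VP64, 2 Ptn_DEL and 2 Ptn_Delta but no EGFP array. Those values are lower bounds, and they enter these differences and the counts of lower genes. Mybl2, a cell cycle factor, differed by -0.53 ± 0.28, -0.26 ± 0.28 and -0.24 ± 0.30. Fbxo15, an F-box gene known as a target of OCT4 and SOX2, differed by 0.07, -0.12 and -0.09. Lin28a, which blocks let-7 processing, read with marked spots kept, differed by -0.08 ± 0.22, 0.47 ± 0.44 and 0.49 ± 0.44. None of these passed the test.

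The TALE constructs were also set against each other, which leaves the EGFP arrays out of the difference. The median over the 27 genes was -0.07 for Ptn_VP64 against Ptn_Delta (20 lower), -0.09 for Ptn_VP64 against Ptn_DEL (17 lower) and 0.00 for Ptn_DEL against Ptn_Delta (12 lower). In each of these comparisons limma on averaged arrays called 0 of the 27, against 1 gene (0.00894%), 1 gene (0.00894%) and 0 genes (0%) of all tested. Unaveraged it called 0 of the 27 in each, against 0.725%, 0.868% and 0% of all genes. Arrays did not overlap for 8 lower genes and 1 higher gene for Ptn_VP64 against Ptn_Delta, against 11.4% and 11.6% of all genes, and for 7 lower and 3 higher for Ptn_VP64 against Ptn_DEL, against 9.28% and 9.03%. For Ptn_DEL against Ptn_Delta they did not overlap for 1 lower gene and 3 higher genes, against 2.33% and 2.29%. The largest of the differences between Ptn_DEL and Ptn_Delta, -1.07, was that of Trim28, whose dim Ptn_DEL array is described above.

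The shift between groups was also read array by array. The median deviation of the genes from their own mean over arrays was 0.14, 0.29, 0.23 and 0.42 on EGFP arrays 1 to 4. It was -0.33, 0.37, -0.09 and -0.04 on the Ptn_VP64 arrays, where the value of replicate 2 rests on 7 genes and was -0.04 with marked spots kept. It was 0.01, -0.05, 0.10 and -0.04 on the Ptn_DEL arrays and -0.32, 0.15, 0.01 and -0.08 on the Ptn_Delta arrays. All 4 EGFP arrays were above 0, while the TALE arrays lay on either side of it, and the same median over all genes tested stayed between -0.10 and 0.07. Within slide 1 alone 13 of 19 genes were lower with Ptn_VP64 (median -0.44), and within slide 2 20 of 27 (median -0.50). For Ptn_DEL these counts were 16 of 22 (median -0.18) and 20 of 27 (median -0.22), and for Ptn_Delta 14 of 18 (median -0.34) and 21 of 25 (median -0.25). Leaving out each array in turn moved the Ptn_VP64 median between -0.42 and -0.20, the Ptn_DEL median between -0.33 and -0.15 and the Ptn_Delta median between -0.44 and -0.18.

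**Figure D4:**
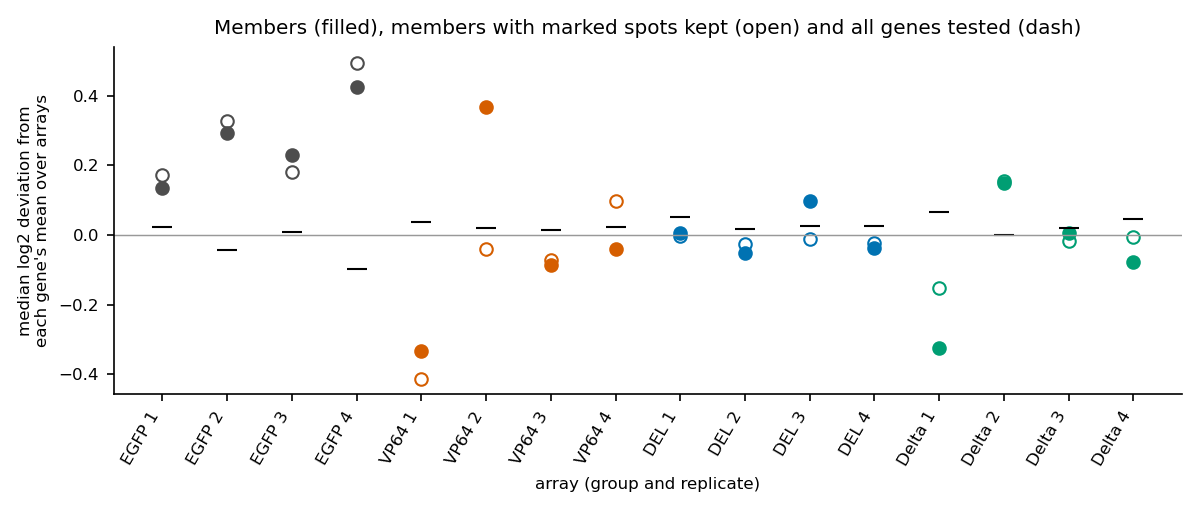
Median log2 deviation of the genes from their own mean over arrays (y axis) on each of the 16 arrays (x axis, by group and replicate), filled for levels as tested, open with marked spots kept, with a dash for all genes tested. The 4 EGFP arrays lie between 0.14 and 0.42, above the dashes, and Ptn_VP64 replicate 2 rests on 7 genes.

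Other genes of the pluripotency network were set beside the 30. Of 17 measured, among them chromatin remodellers, TET enzymes and NODAL antagonists, 12 were lower with Ptn_VP64 (median -0.18), 9 with Ptn_DEL (median -0.03) and 10 with Ptn_Delta (median -0.02), and none passed. Pecam1, an adhesion protein on the ES cell surface, differed by -1.05 ± 0.25 with Ptn_VP64 (adjusted p 0.357) and by -0.10 and -0.12 with the others. Of 8 LIF and STAT3 genes, 6 were higher with Ptn_VP64 (median 0.16), 7 with Ptn_DEL (median 0.33) and 4 with Ptn_Delta (median 0.17), and none passed. Cish, a feedback inhibitor of cytokine receptors, lay at 1.88 to 2.23 on 3 Ptn_VP64 arrays and at -1.23 to -0.36 on 4 EGFP arrays, a difference of 2.75 ± 0.23 with an adjusted p of 0.120.

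Genes of other cell types were read on the same arrays. A gene entered if well above background on at least 4 arrays, which the 4 Ptn_VP64 arrays alone could meet. The counts of higher genes and the summed levels below are therefore not independent of this filter. On an EGFP array 1 to 7 of the 11 trophoblast genes were well above background, and on a Ptn_VP64 array 7 to 10. Summed levels took every spot, strong patches and marked spots included. Of the trophoblast list, 6 of 11 genes were measured, all 6 higher with Ptn_VP64 (median 2.04), 4 of 6 with Ptn_DEL (median 0.40) and 4 of 6 with Ptn_Delta (median 0.24), and none passed. The summed level of 9 trophoblast genes was 3.01 to 4.65 on the EGFP arrays, 5.25 to 7.34 with Ptn_VP64, 3.84 to 5.58 with Ptn_DEL and 3.77 to 5.81 with Ptn_Delta, and Elf5, a defining factor of trophoblast stem cells, was above background on no array. Of the endoderm list, 8 of 8 measured were higher with Ptn_VP64 (median 0.62), 5 of 8 with Ptn_DEL (median 0.06) and 7 of 8 with Ptn_Delta (median 0.27). The summed level was 4.28 to 5.94 on EGFP, 5.76 to 6.54 on Ptn_VP64, 5.26 to 5.74 on Ptn_DEL and 5.11 to 5.73 on Ptn_Delta arrays, and Afp was above background on no array. Primed epiblast genes, which rise when naive ES cells move on, were higher for 7 of 12 with Ptn_VP64 (median 0.48), 7 of 12 with Ptn_DEL (median 0.26) and 10 of 12 with Ptn_Delta (median 0.37), and their summed levels overlapped between groups. The summed level of the 30 pluripotency genes was 9.97 to 10.57 with EGFP, 9.31 to 10.13 with Ptn_VP64, 9.77 to 9.92 with Ptn_DEL and 9.81 to 10.46 with Ptn_Delta. The part of the trophoblast and endoderm genes in the differences of the pluripotency genes was not tested.

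**Figure D5:**
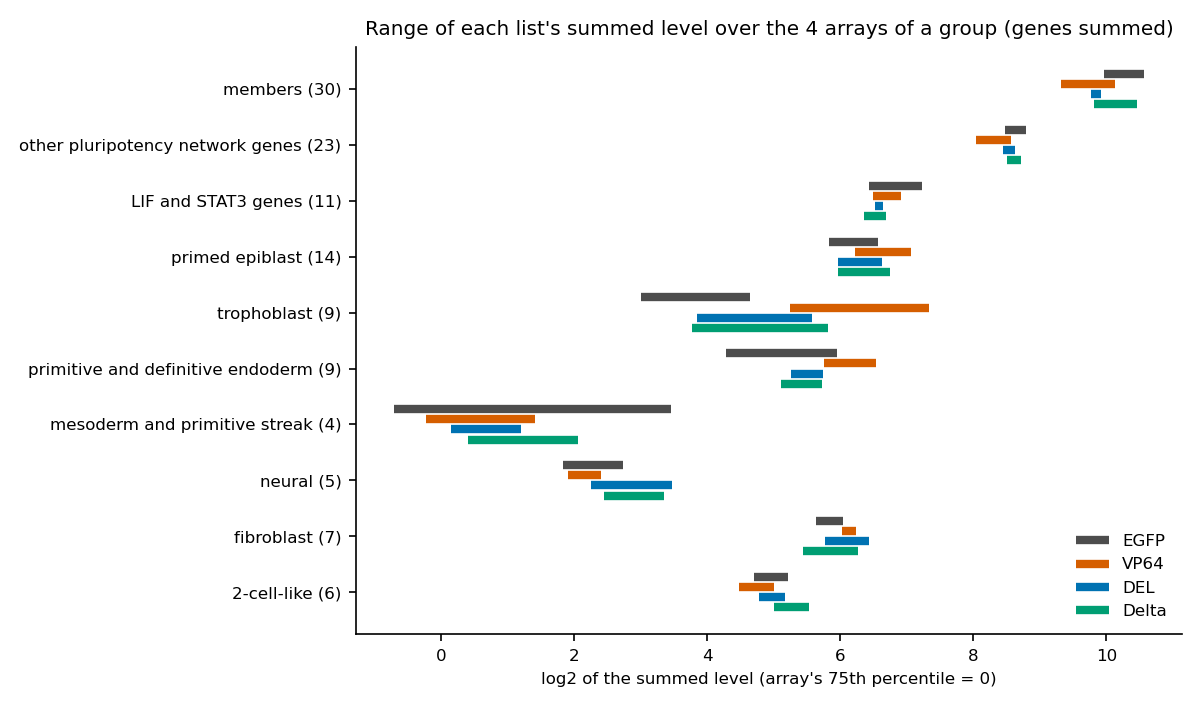
Log2 of the summed level (x axis, each array's 75th percentile is 0) of the 30 pluripotency genes and of 9 other gene lists (y axis, with the number of genes summed), each bar running from the lowest to the highest of the 4 arrays of a group. Sums take every spot, strong patches and marked spots included, of genes well above background on at least 4 arrays. The trophoblast bars of EGFP (3.01 to 4.65) and Ptn_VP64 (5.25 to 7.34) do not overlap, while those of the 30 genes do.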

How the data were processed

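Intensity values were the authors' Feature Extraction output: in version 11.5.1.1 of Agilent's program, per the file headers, it had subtracted background and spatially detrended the processed signal, without normalization between arrays. The deposited series values are log2 values, quantile normalized by the authors as their identical quantiles show, and were used as an alternative. Each array held 59305 non-control and 3671 control spots, the latter left out. A total of 27656 of 55681 probes had 1 gene symbol, through RefSeq accessions, for 20972 genes.

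From these, log2 of the processed signal minus that of the array's 75th percentile was taken. The local shift, the median difference from each spot's median over the 16 arrays in a window of 21 by 21 spots, was subtracted. It was taken over 17906 spots with a median level of at least -1. Spots shifted by over 1 log2 unit and spots marked non-uniform or population outliers were left out. Probes well above background on at least 4 arrays, with at least 2 arrays in each group, were kept, and the brightest stood for its gene. Arrays were averaged in pairs, giving 2 samples a group, for every one of the 3 ways to pair them. Each was given to lmFit and eBayes of limma 3.58.1 (all 4 groups, 2-sided, with a slide term where it does not cancel). The largest p was kept with its difference and error, and adjusted by Benjamini-Hochberg over 11180 genes, with a threshold of 0.05. A difference can therefore depart from that of the array means where arrays are missing. Fits were tested on simulated data in which biological and technical variation were set equal. There the averaged fit missed most changes of every size but the largest, and the unaveraged fit made more false calls. A gene that did not pass may therefore still differ, even by a large amount. P-values weigh a difference against the spread between these samples, and the 2 biological samples a group, with the number of usable arrays, limit the precision.

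Genes described array by array were Pou5f1, Nanog and Sox2 and, in each role group, members called against EGFP or otherwise the 2 with the smallest p; of each other list up to 2 genes with the smallest p, and probes that disagree in sign, were named. Tbx3 and Gbx2, also given array by array, are outside this rule. They and other genes whose values are given were chosen after their values were seen. The members, lists and rules were chosen with earlier results of these data known. Alternatives were levels without patch correction, other windows and limits, other filters, marked spots kept, the mean over probes, normexp, quantile normalization, the authors' values, unaveraged fits and each array left out. Normexp used the median in place of the mean spot signal, which is not used here.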

Additional observations from a re-analysis of the deposited data

How the results depend on the processing

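Across 33 differences of the 11 genes chosen by rule, 858 alternative values were computed over up to 32 alternative settings. Of these values 2, both for Eras with Ptn_VP64, passed the test. The count of genes called for Ptn_VP64 against EGFP, 2 of all genes, became 0 without patch correction, with normexp and with the authors' values, and 1 with a window of 41 spots, with 8 arrays above background, with no filter on dim probes and with quantile normalization. It became 369 with a slide term and no averaging of arrays, 678 with the replicate block, 407 with no slide term and 394 with marked spots also kept. For Ptn_DEL against EGFP, 0 became 8, 17 (replicate block) and 10, and for Ptn_Delta against EGFP 3, 11 (replicate block), 4 and, with marked spots kept, 3. For Ptn_VP64 against Ptn_Delta, 1 became 2 with a patch limit of 0.5, 0 without patch correction, with no filter, with marked spots kept, with normexp, quantile normalization and the authors' values, and 81, 243 (replicate block), 113 and 61 unaveraged. For Ptn_VP64 against Ptn_DEL, 1 became 2 with marked spots kept, 0 without patch correction, with no filter, normexp, quantile normalization and the authors' values, and 97, 246 (replicate block), 94 and 77 unaveraged. Leaving out each array in turn gave 0 to 3 for Ptn_VP64 against EGFP and 0 to 2 for Ptn_VP64 against each other TALE group. The members' median stayed negative in each comparison with EGFP under every setting run, and moved by more than the spread between arrays to -0.14 with normexp (Ptn_VP64), to -0.44 with a patch limit of 0.5 (Ptn_DEL), and to -0.52 without patch correction and -0.70 with the authors' values (Ptn_Delta). Without patch correction the median of all genes also moved, to 0.18 for Ptn_DEL and Ptn_Delta against EGFP, and with the authors' values to 0.20 and 0.14. The cause was not tested. Of the 30 genes, the replicate block called Gbx2 for Ptn_VP64 against EGFP (difference -1.48 ± 0.23, adjusted p 0.0166), against 6.06% of all genes. Same-numbered arrays shared a slide and a row of it, and nothing in the labels pairs them: their deviations correlated with a median of 0.16 to 0.33 and a lowest value of -0.05, and 12 of 16 arrays correlated best with their own number. Signal limits Dppa3 and the dim probes of Tfcp2l1, Nr5a2, Dppa4 and Gdf3. Saturation limits Dppa5a, Utf1, Pou5f1, Zfp42, Trim28, Spp1, Tdgf1 and Mybl2.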

Other observations

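Beyond the lists above, and under the same filter, 5 of 7 fibroblast genes measured were higher with Ptn_VP64 than with EGFP (median 0.54). With Ptn_DEL 2 of 7 were higher and with Ptn_Delta 3 of 7, and none passed the test. Col1a1, a fibrillar collagen, was well above background on 4 Ptn_VP64 arrays and 1 EGFP array. The summed level of 7 fibroblast genes, again over every spot, was 5.64 to 6.04 on EGFP and 6.03 to 6.23 on Ptn_VP64 arrays. It was 5.78 to 6.42 on Ptn_DEL and 5.44 to 6.27 on Ptn_Delta arrays. Of the 2-cell-like genes, which mark a rare totipotent-like state of ES cells, 4 of 5 measured were higher with Ptn_VP64 (median 0.38), 5 of 5 with Ptn_DEL (median 0.28) and 3 of 5 with Ptn_Delta (median 0.63). Zscan4c was well above background on all 16 arrays and differed from EGFP by 0.07, 0.28 and 0.78.

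Neural and mesoderm lists had 3 measured genes each. Sox1, a marker of neural progenitors, was well above background on 3 EGFP arrays, 1 Ptn_VP64 array, 4 Ptn_DEL and 3 Ptn_Delta arrays, so no difference is given for it, with a median of -0.41 over the neural genes with Ptn_VP64. Neurog2, Pax3 and Zfp521 of the neural list and Evx1 and Tbx6 of the mesoderm list were above background on no array. Gata3, a trophoblast factor, was well above background on 4 Ptn_VP64 arrays, 3 Ptn_DEL, 2 Ptn_Delta arrays and 1 EGFP array, and Col4a1, a basement membrane collagen of primitive endoderm, differed from EGFP by 2.15 ± 0.36 with Ptn_VP64 (adjusted p 0.276). None of these genes passed the test in any comparison with EGFP.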
